A study of Mus musculus with 4 samples.

Results

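The 8 genes described here make fatty acids and sterols or switch that synthesis on: the stearoyl-CoA desaturases *Scd1*, *Scd2* and *Scd4*, fatty acid synthase (*Fasn*), the acetyl-CoA carboxylases *Acaca* and *Acacb*, and the transcription factors *Srebf1* and *Srebf2*. They were picked by name, through the Entrez identifiers of the count table, from 24454 genes. All 8 were among the 14266 genes with enough counts to be tested. The names were selected on this same contrast, that is, with the normalized counts of both groups already known. Their differences between the groups are therefore given as a description, with no p-value.

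RNA-seq of hearts at postnatal day 7 (P7) was available for 2 Ctrl libraries (WH7 and WH8) and 2 *miR-128*OE libraries (WH9 and WH10). The Ctrl hearts came from *miR-128*TetRE mice, which carry the responder transgene without a driver. The *miR-128*OE hearts came from *α-MHC*-tTA; *miR-128*TetRE mice, in which the tetracycline transactivator made from the α-myosin heavy chain promoter turns on *miR-128* in cardiomyocytes once doxycycline is withdrawn. Both strains were kept on a C57BL/6 background. The transgene thus acts in 1 cell type, while the RNA came from a tissue of many, so that fewer cells of a type and less RNA per cell cannot be told apart. The sources used here do not say on which doxycycline schedule these hearts were kept, whether animals were pooled, or whether the 2 libraries of a group came from separate mice, so the spread between libraries may be technical.

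Library totals were 12385863 and 8096870 counts for Ctrl and 12440553 and 14359838 for *miR-128*OE. The condition coincided with the sex of the mice, since *Xist* had 11339 to 14543 counts in Ctrl and 94 to 132 in *miR-128*OE libraries while *Ddx3y* had 7 to 13 and 1442 to 1768, so that condition and sex cannot be told apart. Summed levels of markers are given in CPM, counts scaled to the effective library size (the library total times its TMM factor). The summed level of 8 cardiomyocyte markers was 42425 to 43887 CPM in Ctrl and 54989 to 56457 in *miR-128*OE libraries (4 of 8 higher, 2 lower). These markers were thus abundant in all 4 libraries. That of 8 proliferation markers was 454 to 600 and 314 to 316 (4 of 8 lower). Over all tested genes, 16.5% were higher and 15% lower by the test described below. The 4 globin genes that would mark red blood cells were listed at 0 in every library. The part of these shifts in the values below was not tested.

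Fatty acid synthesis starts in the cytosol with acetyl-CoA. The carboxylases turn it into malonyl-CoA, FASN builds palmitate from acetyl-CoA and malonyl-CoA, and the desaturases place the first double bond into stearoyl-CoA and palmitoyl-CoA. Heart muscle mainly burns fatty acids, and the malonyl-CoA made by ACACB at the outer mitochondrial membrane is known there as the brake on carnitine palmitoyltransferase 1 (CPT1), through which fatty acids enter mitochondria. SREBP-1, made from *Srebf1*, mainly drives genes of fatty acid synthesis, and SREBP-2, made from *Srebf2*, mainly those of cholesterol synthesis and uptake. Both are held in the endoplasmic reticulum by SCAP and the INSIG proteins while sterols are plentiful.

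A microRNA pairs through its seed with sites in the 3′UTRs of mRNAs. The seed of miR-128 is shown because it defines the sites searched, with bases 2 to 8 in capitals (sequence from RefSeq).
mmu-miR-128-3p: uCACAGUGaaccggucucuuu
A match to bases 2 to 8 is called 7mer-m8, a match to bases 2 to 7 followed by A is called 7mer-A1, and a match with both is called 8mer. The longest 3′UTRs of GENCODE M21 held such a match in 3 of the 8 genes, *Scd2*, *Scd4* and *Fasn*, at 1 site each, and the capitals below mark it.
*Scd2* (7mer-A1, GRCm38 chr19:44306445-44306451, plus strand): gcctaacaatACTGTGActcagtattc
*Scd4* (7mer-m8, GRCm38 chr19:44345182-44345188, plus strand): aggggtgtatCACTGTGcccagctctg
*Fasn* (8mer, GRCm38 chr11:120806721-120806728, minus strand): agtatgtgacCACTGTGAgaagcatgtc
The *Scd2* site began at base 3245 of a 3′UTR of 3664 bases, the *Scd4* site at base 283 of 1844, and the *Fasn* site at base 1126 of 2008. No match was present in the 3′UTRs of *Scd1* (3464 bases), *Acaca* (1968), *Acacb* (1141), *Srebf1* (833) or *Srebf2* (1462). A site was thus present in 37.5% of the 8 genes, whose median 3′UTR was 1906 bases long, and in 4182 of 13495 tested genes with a 3′UTR (31%), whose median was 1199 bases. An 8mer was present in 12.5% of the 8 and in 6.03% of all tested genes. The genes with a site went different ways in *miR-128*OE hearts, as *Scd4* was lower, *Scd2* was higher and *Fasn* did not pass the test threshold, and a match in a sequence is no evidence of binding.

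Against an adjusted p threshold of 0.05 (the quasi-likelihood test of edgeR, Benjamini-Hochberg adjustment over all tested genes), 2 of the 8 genes counted as higher in *miR-128*OE hearts (*Scd2* and *Srebf2*), 3 as lower (*Scd4*, *Acaca* and *Acacb*), and 3 as neither (*Scd1*, *Fasn* and *Srebf1*). Of all tested genes, 31.5% passed, 16.5% as higher and 15% as lower. The values of the 2 groups did not overlap in 7 of the 8 genes, beside 68.1% of all tested genes. Nothing is read from these counts, since the genes were chosen on the contrast. Their median log2 fold change was −0.22, and the median over all tested genes was −0.01. With 1 library left out, log2 fold changes ranged from −1.68 to −1.45 for *Scd4*, 0.41 to 0.86 for *Scd2* and 0.74 to 0.90 for *Srebf2*. They ranged from −0.53 to −0.42 for *Acaca* and from −0.73 to −0.29 for *Acacb*. Without WH9 or WH10, fewer of the 8 genes passed the threshold, and so did fewer of all tested genes.

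**Figure D1:**
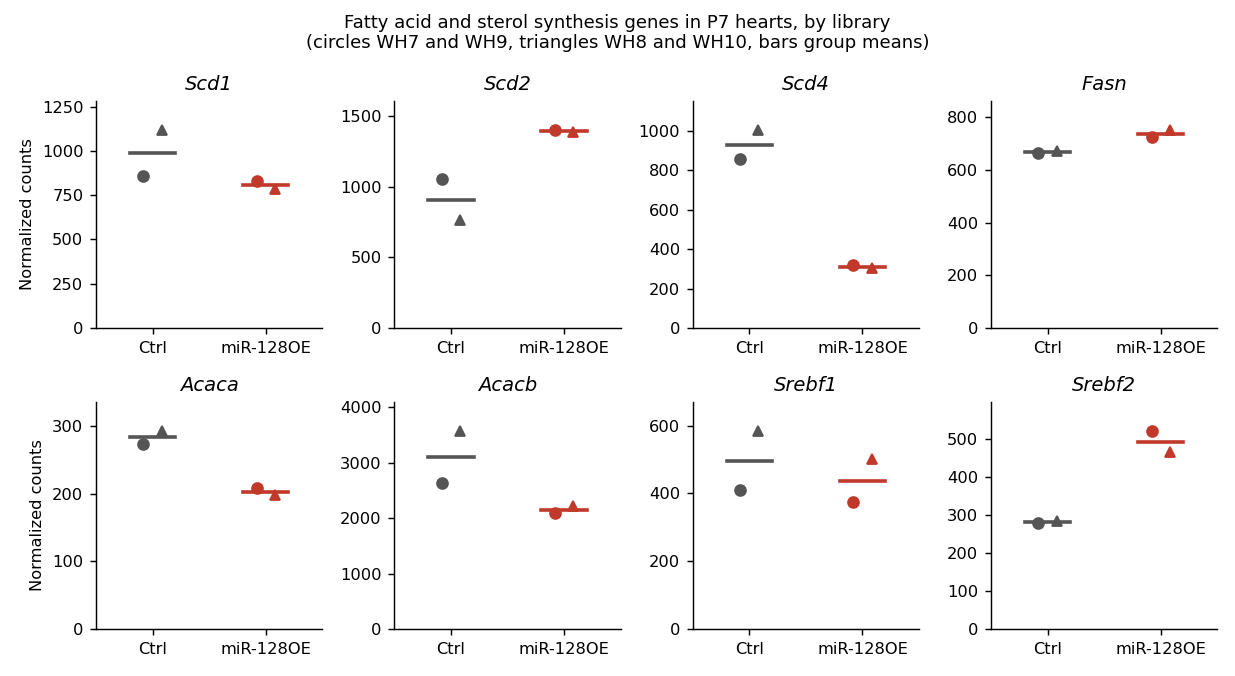
Normalized counts (vertical axes, each from 0) of the 8 genes in each P7 heart library, by group, with circles for WH7 and WH9, triangles for WH8 and WH10, and bars for group means. *Scd4* lies near 930 in Ctrl and 310 in *miR-128*OE libraries, *Srebf2* near 280 and 490, and the groups overlap for *Srebf1* alone.

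The transcription factor genes differed from each other. *Srebf2* (GRCm38 chr15:82147269-82205379, plus strand) had 280 and 284 normalized counts in WH7 and WH8 and 520 and 465 in WH9 and WH10. Both *miR-128*OE libraries were well above Ctrl, and the Ctrl libraries were almost equal. The mean was 282 ± 3.01 in Ctrl and 492 ± 38.7 in *miR-128*OE (SD, n = 2), a log2 fold change of 0.80 (standard error 0.11), or 1.75-fold higher. It ranged from 0.70 to 0.90 over all alternative settings and left-out libraries.

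*Srebf1* (chr11:60199084-60224186, minus strand) had 411 and 584 normalized counts in Ctrl against 375 and 501 in *miR-128*OE libraries. The groups overlapped, and the libraries within each group were farther apart than the group means (497 ± 122 and 438 ± 89.1, SD, n = 2). The log2 fold change was −0.16 (standard error 0.18), and it turned from negative to positive, at 0.11 without WH8 and 0.04 without WH9. Without WH7 it was −0.41 and past the threshold. Per length of transcript, *Srebf2* was at 0.534 and 0.382 times the level of *Srebf1* in WH7 and WH8, and at 1.09 and 0.728 times in WH9 and WH10. The summed level of the pair was 9.5 and 12.2 RPKM (counts per kilobase of exon, scaled to library size) in Ctrl against 11.8 and 13.1 in *miR-128*OE libraries, which overlapped. The 2 transcripts shared no stretch of 50 bases.

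The carboxylases were both lower in *miR-128*OE hearts. *Acacb* (chr5:114146321-114250761, plus strand), the form that sits at mitochondria, had 2639 and 3569 normalized counts in Ctrl against 2089 and 2220 in *miR-128*OE libraries. WH9 and WH10 were below both Ctrl libraries, and WH8 lay far above WH7. For *Acacb* the log2 fold change was −0.52 (standard error 0.13), and it was −0.29 without WH8 and −0.73 without WH7.

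*Acaca* (chr11:84129635-84401651, plus strand), the cytosolic form that feeds fatty acid synthesis, had 274 and 293 normalized counts in Ctrl against 209 and 198 in *miR-128*OE libraries. The groups did not overlap, and the spread within each was small (283 ± 12.9 and 203 ± 7.96, SD, n = 2). The log2 fold change of *Acaca* was −0.48 (standard error 0.13), and with an offset for GC content and length it was −0.30 and no longer past the threshold. DESeq2 did not call *Acaca* either. Both carboxylases also missed the threshold when either *miR-128*OE library was left out, as did most genes called lower with all libraries. Their log2 fold changes moved little, to −0.50 without WH9 and −0.42 without WH10 for *Acaca*, and to −0.47 and −0.55 for *Acacb*.

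As in adult heart muscle, where ACACB is known as the main form, *Acacb* made up most of the carboxylase transcripts. Per length, it was at 17.1 and 21.6 times the level of *Acaca* in WH7 and WH8 and at 17.7 and 19.9 times in WH9 and WH10. Its share of the pair was 94.5 to 95.6% in Ctrl and 94.7 to 95.2% in *miR-128*OE libraries, so the lower sum of the pair (24.6 and 32.9 against 19.5 and 20.6 RPKM) came with a makeup whose ranges overlapped. The ratios and shares depend on merged exon lengths of 17074 bases for *Acaca* and 9632 for *Acacb*. Before scaling to length, WH7 and WH8 had 2886 and 2525 counts of *Acacb* against 300 and 207 of *Acaca*, a smaller ratio.

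*Fasn* (chr11:120805958-120825166, minus strand) had 665 and 671 normalized counts in Ctrl against 725 and 750 in *miR-128*OE libraries. The *miR-128*OE libraries were slightly above Ctrl without overlap, and the difference did not pass the threshold. The log2 fold change was 0.14 (standard error 0.08), with a range from 0.04 (scaling to total counts) to 0.26 (offset for GC content and length, the only setting of 15 in which it passed). At 5.16 to 5.82 RPKM in all 4 libraries, *Fasn* was well below *Acacb* and above *Acaca*.

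The desaturases showed the widest spread among the 8 genes. They lie together on chromosome 19. *Scd4* (chr19:44333326-44346743, plus strand), the form known for its expression in heart, had 856 and 1002 normalized counts in Ctrl against 318 and 306 in *miR-128*OE libraries. Both *miR-128*OE libraries were far below Ctrl and close to each other. The mean was 929 ± 103 in Ctrl and 312 ± 8.25 in *miR-128*OE (SD, n = 2), a log2 fold change of −1.57 (standard error 0.11), or 2.97-fold lower. It was past the threshold in 15 of 15 alternative settings, at −1.68 to −1.45, and was the only one of the 8 genes that passed when the test asked for a change of more than 1.5-fold.

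*Scd2* (chr19:44293676-44306864, plus strand), the form known from brain and from newborn tissues, had 1051 and 765 normalized counts in Ctrl against 1396 and 1384 in *miR-128*OE libraries. The *miR-128*OE libraries were higher and nearly equal, while the Ctrl libraries were apart. The log2 fold change was 0.61 (standard error 0.13), at 0.86 without WH7 and 0.41 without WH8. It missed the threshold without WH9.

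*Scd1* (chr19:44394450-44407709, minus strand), the main form of liver and fat, had 856 and 1115 normalized counts in Ctrl against 832 and 783 in *miR-128*OE libraries. The *miR-128*OE libraries were below Ctrl, with WH7 only slightly above them. The log2 fold change was −0.28 (standard error 0.12), which did not pass the threshold. It was −0.08 without WH8 and −0.47 without WH7, and it passed without WH7, with total counts and without the filter on low counts. *Scd3*, the remaining desaturase of the cluster and not among the 8 genes, had 18 and 14 counts in Ctrl against 20 and 19 in *miR-128*OE libraries (log2 fold change −0.01, standard error 0.39, adjusted p = 0.990).

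**Figure D2:**
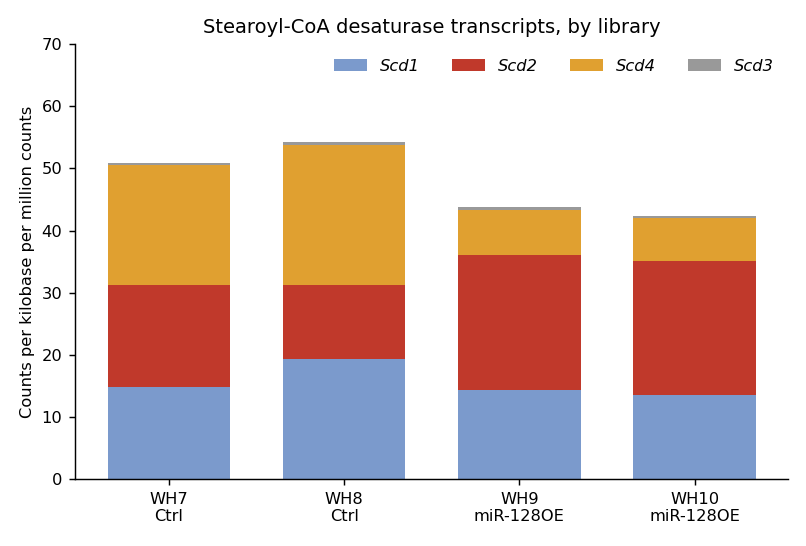
Stacked levels of the 4 stearoyl-CoA desaturase transcripts in each library, in RPKM (counts per kilobase of merged exon, scaled to library size). The sum is 50.9 and 54.3 in the Ctrl libraries against 43.8 and 42.4 in the *miR-128*OE libraries, with the *Scd4* segment smaller and the *Scd2* segment larger in *miR-128*OE.

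The stacked plot of desaturase levels shows a change of makeup. Per length, *Scd4* made up 37.9% and 41.6% of the 4 desaturase transcripts in WH7 and WH8 and 16.4% and 16.3% in WH9 and WH10. *Scd2* made up 32.1% and 21.9% in Ctrl against 49.6% and 50.8% in *miR-128*OE libraries. The share of *Scd1* overlapped between the groups, at 29.2% and 35.7% against 33.0% and 32.1%. *Scd3* stayed at or below 1.08% in every library. *Scd2* was thus at 0.847 and 0.526 times the level of *Scd4* in Ctrl and at 3.03 and 3.12 times in *miR-128*OE libraries, so their order was opposite in the groups. These ratios are taken within a library and do not depend on its scaling. The desaturase transcripts are similar in sequence, but of all stretches of 50 bases at most 4.77% of one transcript were found in another (*Scd3* in *Scd1*), and 1.64% of *Scd4* were found in *Scd2*, so few reads of that length match both exactly.

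Ordered by mean level per length in Ctrl hearts, *Acacb* was first (27.4 ± 5.80 RPKM, SD, n = 2), followed by *Scd4* (20.9 ± 2.33), *Scd1* (17.1 ± 3.18), *Scd2* (14.1 ± 3.15), *Srebf1* (7.50 ± 1.85), *Fasn* (5.18 ± 0.0357), *Srebf2* (3.33 ± 0.0355) and *Acaca* (1.41 ± 0.0641). The libraries of *Scd4* and *Scd1* overlapped, as did those of *Scd1* and *Scd2*, while the other neighbours did not. In *miR-128*OE hearts, *Scd2* was first (21.6 ± 0.128), followed by *Acacb* (19 ± 0.814), *Scd1* (14 ± 0.597), *Scd4* (7.03 ± 0.186), *Srebf1* (6.61 ± 1.34), *Srebf2* (5.82 ± 0.457), *Fasn* (5.72 ± 0.140) and *Acaca* (1.01 ± 0.0396). Here *Scd4* and *Srebf1*, *Srebf1* and *Srebf2*, and *Srebf2* and *Fasn* overlapped.

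Since SREBP-2 drives cholesterol synthesis, the enzymes of that pathway were examined next. Of 21 tested enzymes from acetoacetyl-CoA to cholesterol, 7 rose and 1 fell in *miR-128*OE hearts, and 13 did not pass, beside 16.5% higher and 15% lower over all tested genes. Their median log2 fold change was 0.17. The number that rose was 4 with DESeq2, and 0 when edgeR was asked for a change of more than 1.5-fold (3 at an unadjusted p under 0.05). Over all genes, these 2 settings gave 1569 and 249 higher genes. The number of enzymes that rose was smaller without WH7, WH9 or WH10 and larger without WH8. Without WH9 or WH10, fewer of all tested genes rose as well. *Hmgcs1*, *Idi1*, *Cyp51* and *Hsd17b7* passed with each library left out in turn, *Msmo1* was lost without WH9 and *Sqle* without WH9 or WH10 and with DESeq2, and *Fdps* was lost without WH7, WH9 or WH10, with DESeq2 and with total counts or upper-quartile scaling.

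**Figure D3:**
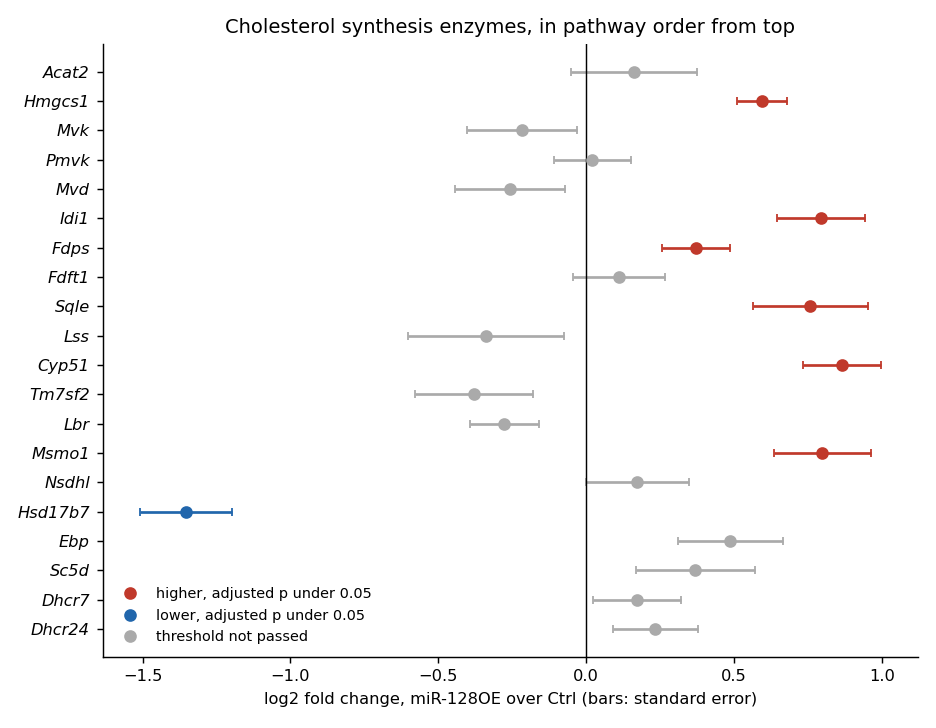
Log2 fold change of *miR-128*OE over Ctrl (horizontal axis, bars for the standard error) for 20 cholesterol synthesis enzymes in pathway order from the top. Red points (6 higher) and the blue point (1 lower) passed an adjusted p of 0.05, and grey points (13) did not.

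The enzymes that rose were spread over the pathway. *Hmgcs1*, which makes HMG-CoA, had 672 and 670 normalized counts in Ctrl against 1047 and 981 in *miR-128*OE libraries. The Ctrl libraries were almost equal and both *miR-128*OE libraries were above them, a difference of 0.59 on the log2 scale (standard error 0.08, adjusted p = 0.000948). In the isoprenoid steps, *Idi1* rose by 0.79 (adjusted p = 0.00393) and *Fdps* by 0.37 (adjusted p = 0.0354) on the log2 scale.

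In the steps that follow squalene, *Cyp51*, the lanosterol demethylase, had 178 and 155 normalized counts in Ctrl against 315 and 298 in *miR-128*OE libraries. The groups were well apart, with a log2 difference of 0.86 (standard error 0.13, adjusted p = 0.00145). *Sqle*, the squalene epoxidase, rose by 0.76 (adjusted p = 0.0165) and *Msmo1*, the sterol methyl oxidase, by 0.80 (adjusted p = 0.00608). *Hsd17b7*, the ketosteroid reductase that acts in the same demethylation steps as *Msmo1*, went the other way, with 214 and 235 normalized counts in Ctrl against 89.1 and 85.8 in *miR-128*OE libraries. It fell by 1.35 on the log2 scale (standard error 0.16, adjusted p = 0.000364), or 2.56-fold lower. As the plot of cholesterol enzymes in pathway order shows, genes that did not pass lay between those that did, such as *Mvk* (−0.22), *Mvd* (−0.26), *Fdft1* (0.11), *Lss* (−0.34) and *Ebp* (0.49, adjusted p = 0.0632). *Hmgcs1* and *Idi1* each overlap an antisense gene model over 12.1% and 9.21% of their exon bases, and *Fdps* overlaps another model on the same strand over 26.7%, so part of their counts could belong to these.

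Promoter windows around the RefSeq transcription starts (GRCm38.p6) were searched on both strands for 3 motifs, the sterol regulatory element form TCACNCCAC, the CCAAT box CCAAT and the Sp1 box GGGCGG. Among the 8 genes, 6 had a window (not *Scd1* and *Scd2*), and 0 held TCACNCCAC, 4 held CCAAT (66.7%) and 2 held GGGCGG (33.3%). Over 11250 tested genes with a window these shares were 1.35%, 42.5% and 66.4%. Of the 16 cholesterol enzymes with a window, 1 held TCACNCCAC (6.25%), 15 held CCAAT and 15 held GGGCGG (93.8% each). The match in *Hmgcs1* is shown in capitals because it is the only one among these enzymes, and it lies 137 bases before the start (GRCm38 chr13:119690214-119690222, plus strand).
*Hmgcs1*: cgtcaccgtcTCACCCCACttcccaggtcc
A missing match says only that these letters are not in the window.

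The list of SREBP processing and control also held transcription factors such as *Nr1h3*. Of its 16 tested genes, 3 rose, 2 fell and 11 did not pass, with a median log2 fold change of −0.07. This is near the 16.5% higher and 15% lower of all tested genes. *Insig2*, which retains the SREBP and SCAP complex, rose from 246 and 223 normalized counts to 425 and 458 (log2 fold change 0.91, standard error 0.12, adjusted p = 0.000608). *Insig1*, its paralog and itself a known SREBP target, rose from 248 and 218 to 395 and 378 (0.72, standard error 0.12, adjusted p = 0.00212). *Fbxw7*, a ubiquitin ligase subunit that marks nuclear SREBP for decay, fell by 0.28 (adjusted p = 0.0237) and *Nr1h3*, the sterol receptor LXRα, which acts on the *Srebf1* promoter, fell by 1.00 (adjusted p = 0.0276), at 33 to 66 counts in a library. *Scap* (−0.07, adjusted p = 0.624), *Mbtps1* (−0.09) and *Mbtps2* (0.30), the escort and the proteases that release SREBP, did not pass. *Insig1* and *Insig2* passed with each library left out, while *Fbxw7* was lost without WH9 or WH10, with DESeq2 and with the offset for GC content and length, and *Nr1h3* without WH8, WH9 or WH10 and with DESeq2.

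Among the 12 tested genes of sterol uptake, storage and efflux, 2 rose and 2 fell, which is near the 16.5% higher and 15% lower of all tested genes. Their median log2 fold change was −0.16. *Vldlr*, the receptor for triglyceride-rich particles in muscle, fell from 2817 and 3358 to 2027 and 2067 (−0.59, standard error 0.10, adjusted p = 0.00186). *Mylip*, the ubiquitin ligase that degrades receptors of this family, fell by 0.52 (adjusted p = 0.0196), and *Soat1*, which esterifies cholesterol, rose by 0.42 (adjusted p = 0.0417). *Vldlr* passed with each library left out, while *Mylip* was lost without WH9 or WH10 and with DESeq2, and *Soat1* without WH8, WH9 or WH10, with DESeq2 and with total counts or upper-quartile scaling.

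A seed match of miR-128 was present in 3 of 21 cholesterol enzymes (14.3%, median 3′UTR 972 bases), 8 of 16 SREBP control genes (50%) and 7 of 12 sterol uptake genes (58.3%), whose 3′UTRs were longer (medians 1750 and 2154 bases). Sites in 3 genes that rose are shown, with the match in capitals.
*Cyp51* (7mer-m8, GRCm38 chr5:4081964-4081970, minus strand): ggctccagccCACTGTGgtggttccat
*Insig1* (7mer-m8, GRCm38 chr5:28077670-28077676, plus strand): gtgtgcacgtCACTGTGttaattacgc
*Soat1* (7mer-m8, GRCm38 chr1:156426168-156426174, minus strand): tatatgactaCACTGTGgctgtcttca
Among the genes that fell, *Fbxw7* and *Vldlr* each held 2 matches, and *Hsd17b7*, *Nr1h3* and *Mylip* held none.

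**Figure D4:**
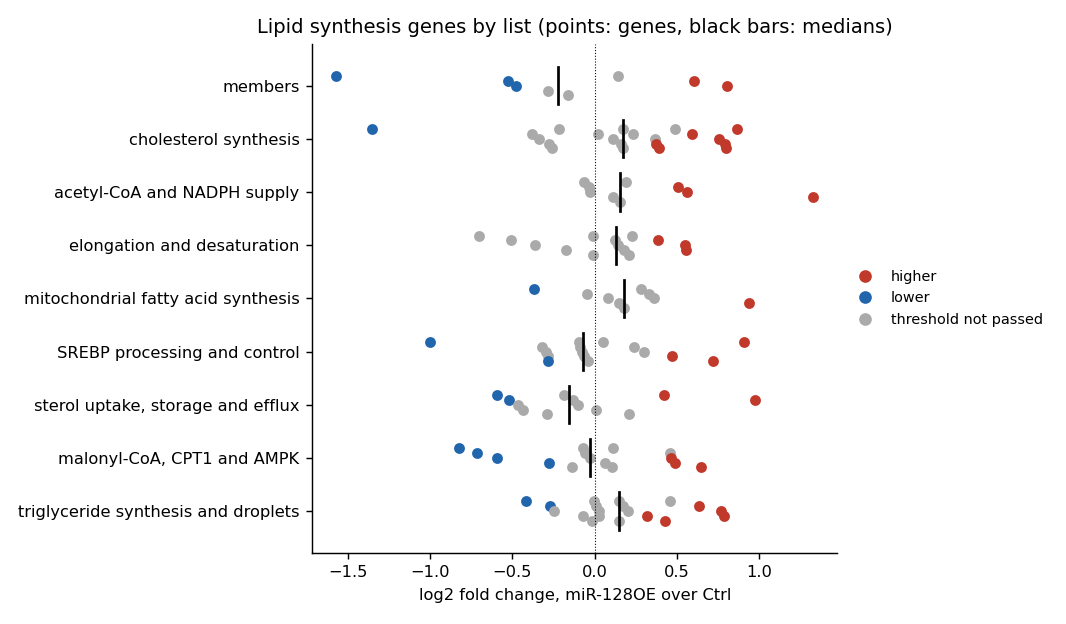
Log2 fold change of *miR-128*OE over Ctrl (horizontal axis) for each of the 8 genes described here (top row, members) and each tested gene of 8 lists of lipid synthesis, with red and blue for genes higher and lower at an adjusted p under 0.05, grey for the rest and black bars for medians. List medians lie between −0.22 and 0.18, while single genes reach from −1.57 for *Scd4* to 1.33 for *Thrsp*.

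Fatty acid synthesis draws acetyl-CoA and NADPH from a set of supply enzymes. Of 9 tested genes in a list of these enzymes together with *Thrsp* and *Mid1ip1*, 3 rose and the other 6 did not pass. Over all tested genes, 16.5% were higher and 15% lower. Among the supply enzymes themselves, *Me1* alone passed. The median log2 fold change of the list was 0.15. *Thrsp*, the Spot 14 protein that accompanies lipogenesis, had the largest value of the list, with 50.3 and 57.9 normalized counts in Ctrl against 125 and 145 in *miR-128*OE libraries. The groups did not overlap (log2 fold change 1.33, standard error 0.21, adjusted p = 0.00153). *Mid1ip1*, its paralog, which helps acetyl-CoA carboxylase to polymerize, rose by 0.51 (adjusted p = 0.00987) and *Me1*, the malic enzyme that makes NADPH, by 0.56 (adjusted p = 0.00299). *Mid1ip1* overlaps an antisense gene model over 25.5% of its exon bases and was lost without WH9 or WH10 and with DESeq2, and *Me1* was lost without WH9, while *Thrsp* passed in all 15 alternatives.

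*Thrsp* is also abundant in fat, so markers of fat were summed as well. Of 10 adipocyte markers 5 were tested and 1 rose (*Adipoq*, 13 to 16 counts in Ctrl and 34 to 45 in *miR-128*OE libraries). The summed level of the 10 was 16.9 to 17.8 CPM in Ctrl and 21.5 to 23.1 in *miR-128*OE libraries. *Plin1* (log2 fold change 0.87), *Pparg* (0.26), *Cidec* (0.18) and *Trarg1* (0.06) were above 0 but did not pass. *Lep*, which was not tested, had 0 counts in both Ctrl libraries and 1 and 6 in WH9 and WH10. *Slc7a10*, also not tested, had 11 and 5 counts in WH7 and WH8 against 5 and 1 in WH9 and WH10. Of 6 brown adipocyte markers 4 were tested, of which 2 rose and 1 fell, beside 16.5% higher and 15% lower over all tested genes. Their sum was 56.2 to 58.5 CPM in Ctrl and 71.4 to 92.0 in *miR-128*OE libraries. *Ucp1*, the defining marker of brown fat, had 56 and 3 counts in WH7 and WH8 and 253 and 189 in WH9 and WH10. *Cidea* rose by 0.51 on the log2 scale, and *Dio2* (0.48) did not pass. *Ebf2* fell by 0.46 (adjusted p = 0.0294), and *Zic1*, which was not tested, had 11 and 5 counts against 5 and 2. *Elovl3*, an elongase of brown fat that was chosen after its values were seen, had 1 count in each of the 4 libraries. The part of fat tissue in the values of the lipid genes was not tested.

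Markers of the other cell types of the heart were summed in the same way. The summed fibroblast level was 6464 to 9950 CPM in Ctrl and 8764 to 9497 in *miR-128*OE libraries (1 of 8 higher), and the macrophage level was 84.9 to 123 and 93.1 to 96.2 (0 of 8 past the threshold by edgeR, 0 at an unadjusted p under 0.05 and 0 by DESeq2). The endothelial sum was 1543 to 1555 and 1608 to 1706 (2 of 8 higher, 1 lower), the smooth muscle and pericyte sum was 1794 to 1935 and 2295 to 2646 (2 higher, 1 lower), and the Schwann cell sum was 61.6 to 74.3 and 56.1 to 58.0 (1 higher, 1 lower). In the erythroid list, 3 of 8 genes were tested and 1 rose. Beside these counts, 16.5% of all tested genes were higher and 15% lower.

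The list of enzymes that extend and desaturate fatty acids, in which *Scd3* was also counted, had 3 genes that rose among 14 tested and 11 that did not pass. Over all tested genes, 16.5% were higher and 15% lower. The median log2 fold change of the list was 0.13. The genes that rose were *Hacd1*, the dehydratase of the elongation cycle in muscle (0.55, adjusted p = 0.00126), *Fads3*, a member of the fatty acid desaturase family (0.55, adjusted p = 0.00239), and *Elovl5*, an elongase of polyunsaturated fatty acids (0.38, adjusted p = 0.00964). In the separate mitochondrial pathway, which makes the octanoyl precursor of lipoic acid, 1 of 9 rose and 1 fell, beside the same shares over all tested genes. *Ndufab1*, the acyl carrier protein, which is also a subunit of respiratory complex I, rose from 1058 and 1276 to 2368 and 2086 normalized counts (0.94, standard error 0.11, adjusted p = 0.000336). *H2-Ke6*, which encodes a ketoacyl reductase subunit, fell by 0.37 (adjusted p = 0.00940). *Ndufab1* passed in all 15 alternatives, *Hacd1* and *Fads3* with each library left out, and *Elovl5* was lost without WH9 and *H2-Ke6* without WH9 or WH10 and with DESeq2.

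The malonyl-CoA made by the carboxylases acts on CPT1, and AMP-activated protein kinase (AMPK) phosphorylates and inactivates both carboxylases. Of 15 genes of this step, 3 rose, 4 fell and 8 did not pass, beside 16.5% higher and 15% lower over all tested genes. Their median log2 fold change was −0.03. The 3 genes that rose were *Cpt2*, the inner membrane transferase (0.65, adjusted p = 0.00281), *Slc25a20*, the carnitine carrier (0.49, adjusted p = 0.00906), and *Prkaa2*, the AMPK catalytic subunit of muscle (0.47, adjusted p = 0.00821). The CPT1 genes fell, with *Cpt1a* at −0.28 (adjusted p = 0.0307) and *Cpt1c* at −0.59 (adjusted p = 0.0282). *Cpt1b*, the CPT1 gene of heart muscle, was at 71 to 107 counts in a library (−0.71, adjusted p = 0.0423), but 81.4% of its exon bases are shared with another gene model on the same strand, so this row may hold only part of its reads. The AMPK regulatory subunit gene *Prkag3* fell by 0.82 (adjusted p = 0.00532). Of these 7 genes *Cpt2* alone passed with each library left out: *Slc25a20*, *Prkaa2* and *Prkag3* were lost without WH9, *Cpt1c* without WH8 or WH9, and *Cpt1a* and *Cpt1b* without WH8, WH9 or WH10. DESeq2 called none of the 3 CPT1 genes, and *Cpt1a* was also lost with the offset for GC content and length.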

How the data were processed

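RNA-seq of P7 hearts comprised 2 Ctrl and 2 *miR-128*OE libraries, grouped by their labels. The authors aligned reads to mm10 with TopHat and deposited raw read counts per gene and library. Gene models, strand handling and the rule for shared reads are not given in the sources used here. Totals ranged from 8096870 to 14359838 counts. PCR copies could not be told from separate molecules, so depth limits cover counting error only.

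The counts were fitted with edgeR 4.0.16 (R 4.3.3): filterByExpr defaults (minimum count 10, minimum total 15), TMM factors (0.957 to 1.04) and the quasi-likelihood test with condition alone, following the model named in the paper. P-values were adjusted by Benjamini-Hochberg over 14266 genes, with a threshold of 0.05. The common biological coefficient of variation was 8.78%. Standard errors are the log2 fold change over the square root of F. Normalized counts are scaled to the mean effective library size, and levels between genes are RPKM over merged GENCODE M21 exons and effective library sizes. Symbols were found for 24381 of 24454 identifiers. Counts were also simulated over 14266 genes, with the common dispersion for every gene and a small set of genes changed. Of these, 85% changed by 1 and 98% changed by 2 on the log2 scale were recovered, and 2.66% of calls were false. In the data, dispersion differs between genes, many more genes were called, and most changes described above were smaller than 1. These shares therefore do not give the reliability of the calls above.

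The 8 genes and the gene lists were chosen with earlier results of these data known. Named genes are the 8, *Scd3*, cholesterol and SREBP genes, and up to 6 genes past the threshold with the smallest p-values in each other list, with defining markers. Alternatives were DESeq2 1.42.0, edgeR's exact and likelihood ratio tests, other scalings, filters and thresholds, a GC and length offset by loess (span 0.5), autosomal genes, and each library left out. Sequences were searched with Python 3.11.15. Hearts at P1 and P28 were not analysed here. Some genes counted in the lists are not reported here by name.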

Additional observations from a re-analysis of the deposited data

How the results depend on the processing

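No paired analysis was possible because the labels give no replicate numbers that Ctrl and *miR-128*OE libraries share. No log2 fold change of the 8 genes that passed the threshold changed direction under any of the 15 alternatives, and *Scd4* passed in all of them. DESeq2 gave 1192 lower genes (2143 with edgeR's quasi-likelihood test) and 4 cholesterol enzymes that were higher. With a change of more than 1.5-fold asked for, 249 genes were higher and 216 lower, with 1 of the 8 genes past the threshold and 0 cholesterol enzymes higher. Of the genes called in the 8 lipid lists, *Hsd17b7*, *Thrsp* and *Ndufab1* alone passed this test. Total counts and no filter on low counts each gave 2 cholesterol enzymes that were lower. With 1 library left out, higher genes ranged from 897 to 2654, lower genes from 667 to 2384, the 8 genes past the threshold from 2 to 7, cholesterol enzymes that were higher from 3 to 8 and those lower from 1 to 2. In such fits the lone library of a group is assumed to vary like the others. With total counts, the median over all genes was −0.11 on the log2 scale and 35.3% of the genes called were higher, against 52.3%. With 8mer sites alone, 1 of the 8 genes held a seed match and not 3. All alternatives were planned, and the causes of these shifts were not tested. The main limits are 2 libraries a group, the coincidence of condition and sex, and the shallowest library, WH8, at 8096870 counts. In WH8, 3 counts correspond to 0.371 CPM when scaled to the library total, without the TMM factor.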

Other observations

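Genes that store and release fatty acids as triglyceride were plotted as a list in the report and are described here. Of 19 tested, 5 were higher and 2 lower in *miR-128*OE hearts, beside 16.5% higher and 15% lower over all tested genes. Their median log2 fold change was 0.15. *Dgat2*, which makes triglyceride from diacylglycerol, had 395 and 427 normalized counts in Ctrl against 732 and 667 in *miR-128*OE libraries (log2 fold change 0.77, standard error 0.10, adjusted p = 0.000625 by the quasi-likelihood test of edgeR). Among the droplet coat genes, *Plin5*, the perilipin of oxidative tissues, rose from 359 and 413 to 611 and 580 (0.63, adjusted p = 0.00224), and *Plin4* from 739 and 1032 to 1437 and 1596 (0.79, adjusted p = 0.00281), while *Plin3* fell by 0.27 (adjusted p = 0.0285). *Pnpla2*, the adipose triglyceride lipase, rose by 0.43 (adjusted p = 0.00504). *Lpin2*, a phosphatidate phosphatase, fell by 0.42 (adjusted p = 0.0216). *Dgat2*, *Plin4* and *Plin5* passed with each library left out, *Pnpla2* was lost without WH9, and *Plin3* and *Lpin2* were lost without WH9 or WH10 and with DESeq2, *Lpin2* also with the offset for GC content and length.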
